A study of Sus scrofa with 12 samples.

Results

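Progesterone is made from cholesterol, and 8 genes of this route were described in porcine ovary: STAR, CYP11A1, HSD3B1, SCARB1, FDX1, FDXR, TSPO and STARD3. They were taken by exact gene symbol from a table of 29884 genes, all 8 were found there, and all 8 were among the 12260 genes with at least 1 FPKM in at least 3 libraries that were tested. FPKM is the number of reads per kilobase of transcript scaled to the depth of the library, so that a comparison between genes depends on the transcript length used. Left ovaries were taken from sows of a commercial herd 4 days after delivery 4, with 3 ovaries from sows of small litter size (SLS, ZD2, ZD3 and ZD12, with 8.48 ± 0.53 piglets per litter) and 3 from sows of large litter size (LLS, ZD5, ZD7 and ZD8, with 16.19 ± 0.43 piglets per litter). The labels name no treatment, breed or age, and the sows of both groups shared the herd and the time after delivery. Each library held total RNA of homogenized ovary tissue after removal of ribosomal RNA, so that fewer cells of a type and less RNA per cell cannot be told apart.

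Steroid-making cells take up cholesterol from lipoproteins through receptors such as SCARB1, and move it to the inner mitochondrial membrane. There CYP11A1 cleaves its side chain to give pregnenolone, with electrons that FDXR takes from NADPH and FDX1 carries to the P450 enzyme. HSD3B1 then turns pregnenolone into progesterone. In the ovary the corpus luteum makes most of the progesterone, and theca and granulosa cells of follicles use the same first steps.

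The regions upstream of 4 of the genes are shown as examples of the letters found there. Those of FDX1, STARD3 and HSD3B1, of which HSD3B1 had no match to the motifs below, are not shown. Whether the genes differ in these motifs from each other or from other promoters was not tested. The sequences were read from the Sscrofa11.1 reference of RefSeq, 5′ to 3′ on the strand of the gene, from 250 bases upstream of the annotated curated transcript start up to the next annotated exon of the gene. For CYP11A1 this stretch lies inside the annotated gene, in the first intron of a predicted transcript that begins further upstream. Capitals mark exact matches, on either strand, to any of 6 motifs. These were the CCAAT box (letters CCAAT), the site of the factor SP1 (letters GGGCGG), the site of GATA factors (letters AGATAA), the site of NR5A1 and NR5A2 (letters AAGGTCA), the site of CREB (letters TGACGTCA) and the TATA box (letters TATAAA).
STAR, chr15:48377347-48377596, plus strand: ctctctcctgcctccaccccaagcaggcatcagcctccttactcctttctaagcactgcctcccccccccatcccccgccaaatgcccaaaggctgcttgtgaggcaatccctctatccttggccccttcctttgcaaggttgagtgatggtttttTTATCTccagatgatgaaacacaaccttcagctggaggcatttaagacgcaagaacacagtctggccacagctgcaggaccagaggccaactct
CYP11A1, chr7:59175536-59175622, plus strand: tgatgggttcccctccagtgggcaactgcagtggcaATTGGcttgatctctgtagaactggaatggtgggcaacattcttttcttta
FDXR, chr12:6372045-6372223, plus strand: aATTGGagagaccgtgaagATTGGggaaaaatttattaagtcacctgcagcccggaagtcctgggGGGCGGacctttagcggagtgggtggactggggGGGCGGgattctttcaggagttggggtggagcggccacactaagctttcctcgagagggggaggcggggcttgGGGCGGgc
TSPO, chr5:5735098-5735347, minus strand: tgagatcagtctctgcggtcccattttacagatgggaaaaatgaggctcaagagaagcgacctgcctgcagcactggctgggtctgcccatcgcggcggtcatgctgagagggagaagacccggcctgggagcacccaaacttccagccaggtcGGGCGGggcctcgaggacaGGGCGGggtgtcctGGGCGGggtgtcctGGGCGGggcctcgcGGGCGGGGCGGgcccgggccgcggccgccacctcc

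In STAR the capitals are 1 match to AGATAA, read on the reverse strand, at bases -94 to -89 from the start. In CYP11A1 they are 1 match to CCAAT, also on the reverse strand, at bases -214 to -210. The FDXR stretch opens with 2 CCAAT matches on the reverse strand and goes on with GGGCGG on the forward strand. The TSPO stretch holds 6 matches to GGGCGG, of which the last 2 share a base. Over the full 300 bases from 250 before to 50 after the start, GGGCGG was found 6 times in TSPO, 5 times in FDXR, 5 times in STARD3 and 1 time in FDX1, and not in STAR, CYP11A1 or HSD3B1. It occurs in 49.4% of 20314 annotated promoters of the same length. CCAAT, found in FDXR, STARD3 and CYP11A1, occurs in 35.2% of them, and AGATAA, found in STAR alone among the genes read, in 9.73%. The motifs of NR5A1 and NR5A2, of CREB and of the TATA box, which occur in 3.82%, 2.15% and 11.5% of promoters, had no exact match in the 7 windows read. The SCARB1 gene model is incomplete at its 5′ end and was not read. The GC content of these windows was 50.3% in HSD3B1, 56% in STAR, 58.7% in CYP11A1, 64% in FDXR, 67% in STARD3, 69% in TSPO and 74.7% in FDX1.

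One library stood apart before any gene was considered. Gene libraries held between 32272803 reads (ZD8) and 60903268 reads. ZD8 lay at 96.5 on a first principal component that held 67.1% of the variance, where the other 5 ovaries lay between -32.2 and 9.498. Its mean Spearman correlation with the other libraries was 0.765, against 0.903 to 0.920 for the others. The summed FPKM of theca cell markers was 415 in ZD8 and 9.31 to 74.4 elsewhere, both defining genes INSL3 and CYP17A1 being highest in ZD8. Oocyte markers summed to 127 in ZD8 and 6.34 to 23.0 elsewhere, with 3 of 3 tested genes highest in ZD8. Luteal markers outside the 8 genes (LHCGR, PTGFR and PRLR) summed to 28.6 in ZD8 and 85.7 to 209 elsewhere. LHCGR and PTGFR carried this sum, while PRLR was highest in ZD8, at 1.16 FPKM against 0 to 0.167. Of the adrenal cortex markers, CYP21A2 and MC2R were near 0 in every ovary, while MRAP had 64.1 to 300 FPKM in 5 ovaries and 2.86 in ZD8. Endothelial markers summed to 133 in ZD8 and 282 to 408 elsewhere, and T cell markers to 13.1 and 2.29 to 5.06. Sums of smooth muscle (914) and macrophage markers (38.1) were inside the range of the other ovaries, although the smooth muscle gene MYH11 (190 FPKM against 15.5 to 47.1) and 4 of 5 macrophage genes were highest in ZD8. Stromal markers summed to 3373 in ZD8 and 3768 to 9586 elsewhere, with DCN higher (1854 against 363 to 859) and COL3A1 lower (451 against 1430 to 3222). Granulosa cell markers summed to 152 in ZD8 and 186 to 857 elsewhere. Of these FOXL2, FSHR and AMH were highest in ZD8, and INHA was lowest there (66.4 FPKM against 162 to 726). The group differences of the 8 genes are given below with and without ZD8, and the part of these markers in the results was not tested.

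The 3 steps to progesterone were among the most abundant RNAs of 5 ovaries and were low in ZD8. Reads of STAR, CYP11A1 and HSD3B1 made up 1.98% to 2.57% of all reads in those 5 ovaries and 0.0172% in ZD8. STAR and HSD3B1 ranked between 5 and 11 among all genes of those libraries, and CYP11A1 at 16 or 17. In ZD8 the 3 genes ranked at 2242, 4000 and 3044.

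**Figure D1:**
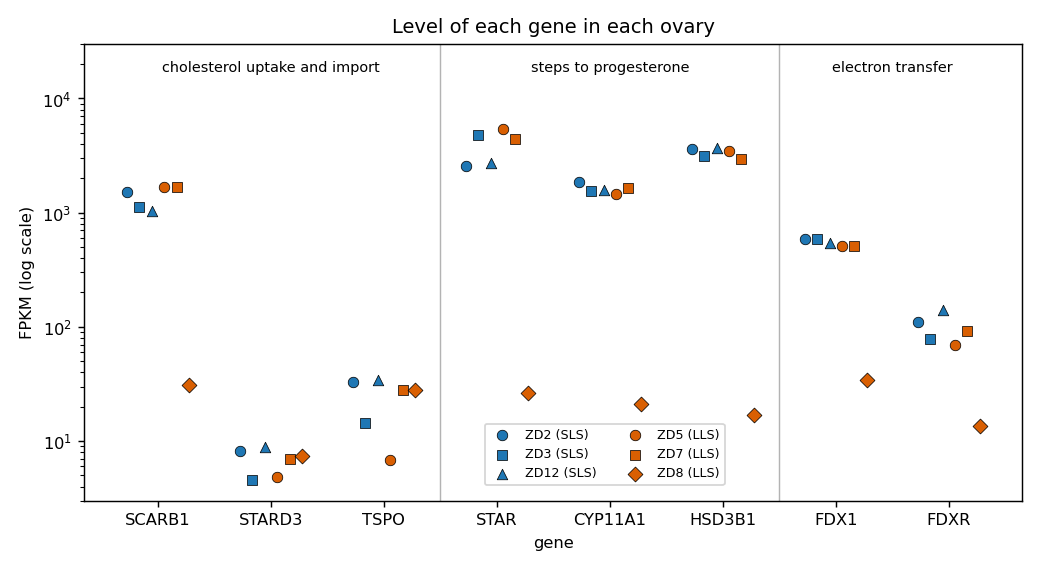
Level of each gene (FPKM, log scale) in each of the 6 ovaries, blue for SLS and orange for LLS, with 1 point per ovary. ZD8, the orange diamond, lies far below the other 5 ovaries for 6 of 8 genes and within their range for STARD3 and TSPO.

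STAR (chr15:48377597-48385398, plus strand), the protein that delivers cholesterol to the inner mitochondrial membrane, had 2542 FPKM in ZD2, 4790 in ZD3 and 2722 in ZD12 of the SLS group. In the LLS group it had 5418 in ZD5, 4429 in ZD7 and 26.4 in ZD8. ZD3, ZD5 and ZD7 were high, ZD2 and ZD12 lay lower, and ZD8 was 96.3-fold below the lowest of them, so the groups overlapped. The group means were 3351 ± 1249 (SD, n = 3) in SLS and 3291 ± 2870 in LLS, and 4923 in LLS without ZD8.

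CYP11A1 (chr7:59172829-59188479, plus strand), the side-chain cleavage enzyme, had 1863 FPKM in ZD2, 1560 in ZD3 and 1573 in ZD12, against 1470 in ZD5, 1633 in ZD7 and 21.0 in ZD8. Outside ZD8 the highest ovary was only 1.27-fold above the lowest, and ZD8 lay 69.9-fold below the lowest. HSD3B1 (chr4:101565229-101574110, minus strand), which makes progesterone from pregnenolone, had 3600 FPKM in ZD2, 3126 in ZD3 and 3707 in ZD12, against 3467 in ZD5, 2938 in ZD7 and 16.8 in ZD8. It too varied little among 5 ovaries, by 1.26-fold, and its step down to ZD8 was 175-fold, the largest of the 8 genes. The means were 1665 ± 171 in SLS and 1041 ± 887 in LLS for CYP11A1, and 3478 ± 309 and 2141 ± 1858 for HSD3B1. Without ZD8 the LLS means were 1552 for CYP11A1 and 3203 for HSD3B1.

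The low values of ZD8 rested on 2153 reads of STAR, 2270 of CYP11A1 and 1118 of HSD3B1, so counting error was small beside these differences. The order of levels among the 3 genes depends on the transcript length used. The FPKM values fitted the longest annotated transcript, which is 3346 bases for CYP11A1 and 2060 for HSD3B1, while the curated transcripts have 1849 and 1694 bases. With the curated lengths CYP11A1 would stand between 2661 and 3372 FPKM in the 5 ovaries and HSD3B1 between 3573 and 4507. STAR, whose longest and curated transcripts have the same length, was above HSD3B1 as deposited in ZD3, ZD5 and ZD7 and below it in ZD2 and ZD12.

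Both electron-transfer partners were lower than CYP11A1 in those 5 ovaries, and their step down to ZD8 was smaller. FDX1 (chr9:38376147-38399026, plus strand), the ferredoxin that carries the electrons, had 589.1 FPKM in ZD2, 589.3 in ZD3 and 537 in ZD12, against 516 in ZD5, 506 in ZD7 and 34.1 in ZD8. As deposited it was the steadiest of the 8 genes over the 5 ovaries, with 1.16-fold between highest and lowest. Its ZD8 value lay 14.9-fold below the lowest of them. FDX1 was also the one gene of the 8 whose groups did not overlap as deposited. Its highest LLS ovary, ZD5, lay just below its lowest SLS ovary, ZD12. The groups overlapped once values were taken as a share of the summed FPKM of the library. That share was 0.131% in ZD12, 0.137% in ZD5 and 0.135% in ZD7. Across all tested genes 3.17% had groups that did not overlap with LLS lower and 1.95% with LLS higher. The exact two-sided permutation test on the deposited values gave p = 0.1 for FDX1, the smallest that 3 ovaries against 3 allow.

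FDXR (chr12:6372224-6382769, plus strand), the reductase at the head of the chain, had 109 FPKM in ZD2, 77.7 in ZD3 and 140 in ZD12, against 68.9 in ZD5, 92.1 in ZD7 and 13.6 in ZD8. ZD3 and ZD5 were low and ZD12 was high, a 2.04-fold range over the 5 ovaries, and ZD8 was 5.07-fold below the lowest. The means were 572 ± 30.0 (SD, n = 3) in SLS and 352 ± 275 in LLS for FDX1, and 109 ± 31.4 and 58.2 ± 40.3 for FDXR. Leaving out ZD8 gave LLS means of 511.0 and 80.5.

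The ratio of FDX1 to CYP11A1 was 0.316 in ZD2, 0.378 in ZD3, 0.342 in ZD12, 0.351 in ZD5 and 0.310 in ZD7, and 1.62 in ZD8. In 5 ovaries the carrier was thus near a constant share of the enzyme. In ZD8 it was above the enzyme as deposited but not with the curated CYP11A1 length, by which the ratio was 0.896 in ZD8 and 0.171 to 0.209 elsewhere. FDXR stood at 0.0587 of CYP11A1 in ZD2, 0.0498 in ZD3, 0.0893 in ZD12, 0.0469 in ZD5, 0.0564 in ZD7 and 0.646 in ZD8. FDX1 exceeded FDXR in every ovary, by 5.38-fold in ZD2, 7.58-fold in ZD3, 3.83-fold in ZD12, 7.48-fold in ZD5, 5.501-fold in ZD7 and 2.51-fold in ZD8. HSD3B1 exceeded CYP11A1 by 1.80-fold to 2.36-fold in 5 ovaries and was at 0.800 of it in ZD8. The sizes of these 3 ratios to CYP11A1 depend on the transcript length used, as do those of STAR/CYP11A1 and STARD3/STAR. Their order between ovaries does not.

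**Figure D2:**
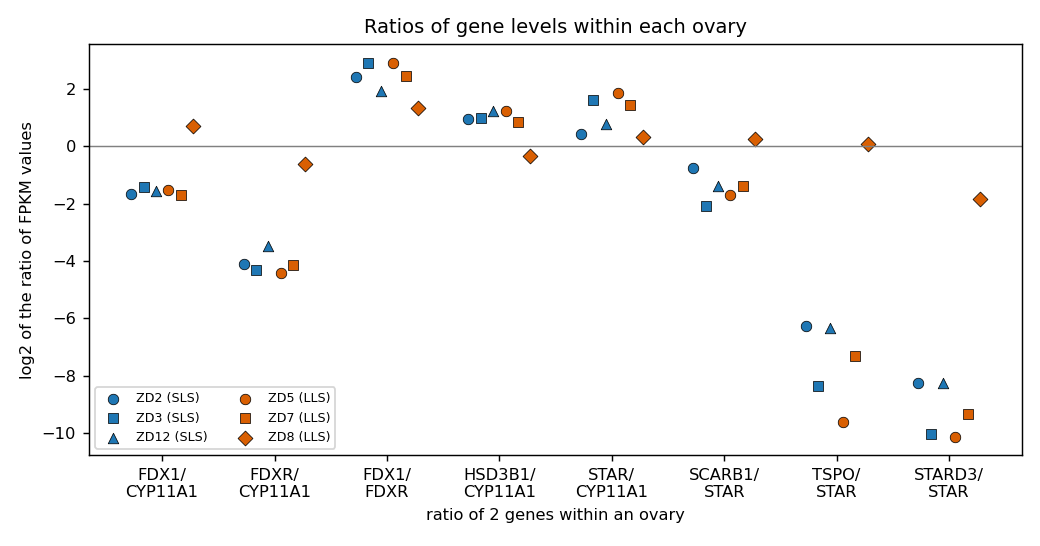
Log2 of 8 ratios of FPKM values within an ovary, with 1 point per ovary, blue for SLS and orange for LLS; 0 marks equal levels. FDX1/CYP11A1 is nearly level over 5 ovaries, and ZD8 lies outside their range in every ratio.

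None of the 8 ratios separated the litter size groups. The LLS minus SLS difference of the mean log2 ratio was 0.70 for FDX1/CYP11A1 (exact two-sided permutation p = 0.7), 0.90 for FDXR/CYP11A1 (p = 0.9) and -0.20 for FDX1/FDXR (p = 0.8). It was -0.48 for HSD3B1/CYP11A1 (p = 0.5) and 0.26 for STAR/CYP11A1 (p = 0.8), again by exact permutation. The groups overlapped in each ratio. Without ZD8 the FDX1/CYP11A1 difference was -0.06 and that of FDXR/CYP11A1 was -0.31, so their direction rested on that ovary. The FDX1/FDXR difference also turned, to 0.25.

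Cholesterol uptake and import did not follow a single pattern, since SCARB1 was low in ZD8 and TSPO and STARD3 were not. SCARB1 (chr14:28301421-28393568, plus strand), the receptor for high density lipoprotein, had 1515 FPKM in ZD2, 1123 in ZD3 and 1044 in ZD12, against 1665 in ZD5, 1687 in ZD7 and 31.2 in ZD8. It was highest in the LLS ovaries ZD5 and ZD7 and ZD8 lay 33.4-fold below ZD12. The means were 1227 ± 252 (SD, n = 3) in SLS and 1128 ± 950 in LLS, and 1676 in LLS without ZD8.

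TSPO (chr5:5723190-5735097, minus strand), an outer mitochondrial membrane protein that binds cholesterol, had 32.8 FPKM in ZD2, 14.5 in ZD3 and 33.9 in ZD12, against 6.89 in ZD5, 27.9 in ZD7 and 28.2 in ZD8. ZD5 and ZD3 were low and ZD8 lay among the other 3. Its 4.92-fold range over the 5 ovaries was the widest of the 8 genes, and its lowest value rested on 317 reads. STARD3 (chr12:22654920-22680803, minus strand), a cholesterol-binding protein of late endosomes, had 8.21 FPKM in ZD2, 4.59 in ZD3 and 8.87 in ZD12, against 4.84 in ZD5, 6.91 in ZD7 and 7.36 in ZD8. It was low in the same ovaries, ZD3 and ZD5, and its ZD8 value was inside the range of the others. The means were 27.0 ± 10.9 (SD, n = 3) in SLS and 21.0 ± 12.2 in LLS for TSPO, and 7.22 ± 2.302 and 6.37 ± 1.35 for STARD3. Without ZD8 the LLS means were 17.4 and 5.87.

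Relative to STAR, these genes stood far apart. The ratio of SCARB1 to STAR was 0.596 in ZD2, 0.235 in ZD3, 0.383 in ZD12, 0.307 in ZD5, 0.381 in ZD7 and 1.18 in ZD8. TSPO was at 0.00127 to 0.0129 of STAR in 5 ovaries and at 1.07 in ZD8, 82.7-fold above the highest of the others. STARD3 was at 0.000893 to 0.00326 of STAR in 5 ovaries and at 0.279 in ZD8, and the curated STARD3 length would raise each value 1.44-fold. The LLS minus SLS differences of the mean log2 ratios were 0.46, 1.38 and 1.75 in that order (exact two-sided permutation p = 0.7, 0.9 and 0.9), and all 3 were negative without ZD8, at -0.14, -1.47 and -0.87.

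None of the 8 genes passed the test between litter size groups, and neither did any other tested gene. The test was limma on log2(FPKM + 1) with a variance trend. A gene counted as called where its adjusted p (Benjamini-Hochberg) was under 0.05 and its log2 fold change over 1 in size, which held for 0% of the 12260 genes. Without adjustment 216 genes (1.76%) had p under 0.05, and none of the 8 was among them. edgeR on the recovered reads called 0 genes, and DESeq2 called 20 of 12245 (0.163%), again without any of the 8. With array weights, by which limma gives a deviating library less weight, 13 genes were called (0.106%), and without ZD8 21 genes (0.171%), and each time none was one of the 8. At the level of p without adjustment and with ZD7 left out, 1 of the 8 genes, FDXR, was under 0.05, as were 326 of all tested genes (2.66%).

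**Figure D3:**
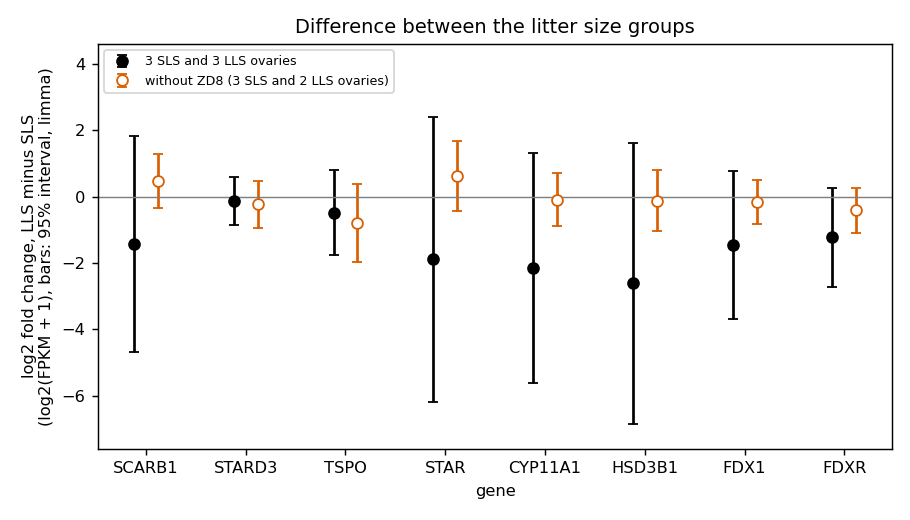
Log2 fold change of each gene, LLS minus SLS, on the log2(FPKM + 1) scale with 95% limma intervals, for all 6 ovaries (black) and without ZD8 (orange, open). All intervals include 0, and those without ZD8 are narrower for each gene.

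The log2 fold changes on log2(FPKM + 1) were negative for all 8 genes by limma, with a median of -1.44 beside a median of 0.02 over all tested genes, and ZD8 set most of this. HSD3B1 had the largest, at -2.61 ± 1.85 (SE), with an interval from -6.85 to 1.62. CYP11A1 had -2.14 ± 1.51 (-5.61 to 1.32) and STAR -1.89 ± 1.87 (-6.18 to 2.41). For FDX1 the value was -1.45 ± 0.97 (-3.68 to 0.78) and for FDXR -1.23 ± 0.66 (-2.74 to 0.27). SCARB1 had -1.43 ± 1.41 (-4.68 to 1.81), TSPO -0.49 ± 0.56 (-1.77 to 0.80) and STARD3 -0.13 ± 0.32 (-0.87 to 0.60). The limma adjusted p was 0.999 for each. Fits to the recovered reads of all 6 ovaries, which compare means of reads and not of logarithms, gave values nearer to 0 for 7 of the 8 genes. By edgeR these were -0.58 for HSD3B1, -0.57 for CYP11A1, -0.60 for FDX1, -0.81 for FDXR, -0.020 for SCARB1, -0.38 for TSPO and 0.073 for STAR, while STARD3 stood at -0.17.

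Without ZD8 the limma values on log2(FPKM + 1) were -0.12 for HSD3B1, -0.10 for CYP11A1, -0.16 for FDX1 and -0.41 for FDXR. STAR then stood at 0.61 (-0.44 to 1.66) and SCARB1 at 0.47 (-0.34 to 1.27), both with the other sign. TSPO had -0.80 (-1.98 to 0.37) and STARD3 -0.23 (-0.93 to 0.47). All of these intervals include 0.

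ZD8 was the lowest ovary for 6 of the 8 genes, against 26.3% of all tested genes. In 5 of the 8 it was at most 1 in 10 of the lowest other ovary, against 1.08% of all tested genes. For 6 of the 8 it was at most 1 in 3 of that ovary, against 3.68%. These counts describe 1 library and carry no test, and ZD8 was known to stand apart when they were made.

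The libraries also differed in how gene levels followed the GC content of the transcripts, and this moved with 3 of the genes. Genes were split into 5 groups of 2450 by GC content, and each log2(FPKM + 1) value was centred on the mean of the gene over the 6 ovaries. In the most GC-rich group the median centred value was -0.36 in ZD3 and -0.31 in ZD5, and 0.19 in ZD2 and 0.28 in ZD12. TSPO (65.6% GC), FDXR (63.6%) and STARD3 (60.5%) are GC-rich, and all 3 were low in ZD3 and ZD5. After subtraction of a smooth GC trend from each library, a step chosen after the data were seen, the range over the 5 ovaries outside ZD8 went from 0.82 to 0.29 on the log2 scale for STARD3 and from 1.02 to 0.46 for FDXR. For TSPO it went from 2.15 to 1.57, and ZD5 remained its lowest ovary. The STAR range barely moved (1.09 and 1.06), and those of SCARB1, CYP11A1, HSD3B1 and FDX1 widened. That of FDX1 (0.293) was then about equal to that of STARD3 (0.294). The litter size groups of FDX1 overlapped after this subtraction, with ZD12 below ZD5 and ZD7. For FDXR all LLS values then lay below all SLS values. The median range over all genes went from 0.72 to 0.49. Whether RNA quality had a part in this was not tested.

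**Figure D4:**
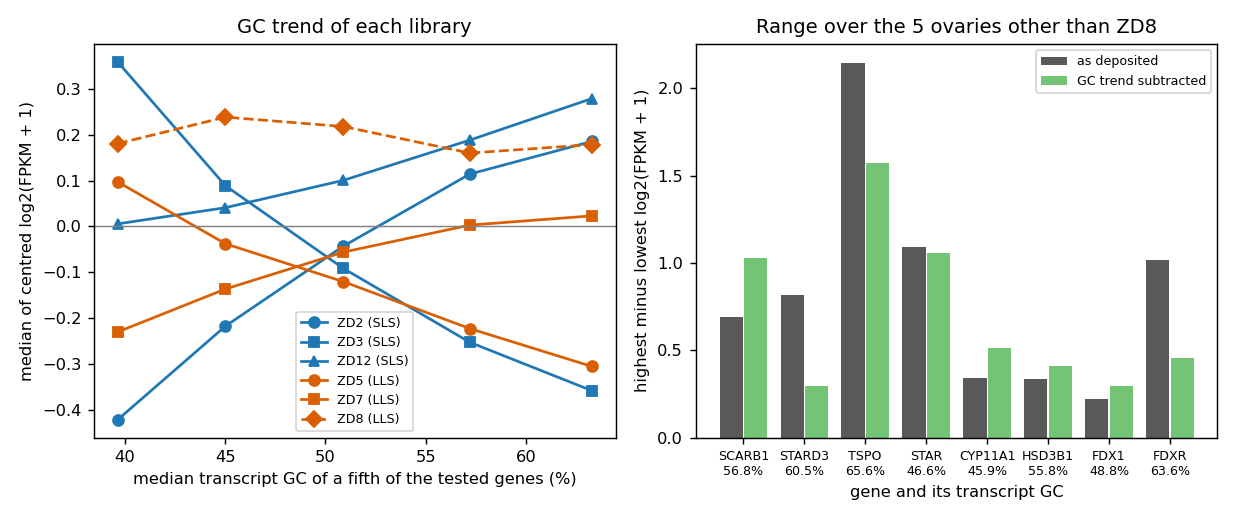
Left, median centred log2(FPKM + 1) of 5 groups of genes by transcript GC content, with 1 line per ovary (blue SLS, orange LLS, ZD8 dashed); right, highest minus lowest log2(FPKM + 1) of each gene over the 5 ovaries other than ZD8, as deposited (grey) and after subtraction of the GC trend (green). The lines of ZD3 and ZD5 descend, and the green bar is shorter for STARD3, FDXR and TSPO, longest for TSPO, and longer than the grey one for SCARB1.

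Other genes of cholesterol supply and import gave 0 of 17 tested genes called in either direction, with a median log2 fold change of -0.15, and 0.09 without ZD8, where the median over all tested genes was -0.10. ZD8 was the lowest ovary for 12 of the 17 and at most 1 in 3 of the lowest other ovary for 6. The mitochondrial pores VDAC1 and VDAC2 had 44.4 and 56.0 FPKM in ZD8, and 129 to 161 and 198 to 257 elsewhere, while VDAC3, chosen after its values were seen, had 39.9 in ZD8 and 33.4 to 43.5 elsewhere. SOAT1, which esterifies cholesterol for storage, had 6.22 in ZD8 and 17.3 to 27.8 elsewhere.

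The list of other electron carriers and P450 enzymes gave 0 of 6 tested genes called, with a median log2 fold change of 0.02, and 0.34 without ZD8. CYB5A, a cytochrome b5 that passes electrons to P450 enzymes of the endoplasmic reticulum, had 923 FPKM in ZD2, 1738 in ZD3 and 980 in ZD12, against 2221 in ZD5, 1588 in ZD7 and 70.2 in ZD8. POR, which passes electrons from NADPH to the microsomal P450 enzymes, had 18.7 in ZD8 and 71.2 to 108 elsewhere. CYP27A1, a mitochondrial P450 enzyme that also draws on FDX1 and FDXR, was highest in ZD8, at 46.4 FPKM against 13.8 to 34.6. The partners were thus low in ZD8 together with CYP11A1, while the level of another enzyme they serve was not.

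Among 10 tested genes that convert progesterone, androgens or other steroids, 0 were called, and the median log2 fold change was -0.24 (-0.12 without ZD8). HSD11B2, which inactivates cortisol, had 33.1 FPKM in ZD2, 24.9 in ZD3 and 81.2 in ZD12, against 10.02 in ZD5, 19.6 in ZD7 and 1.94 in ZD8. Its groups did not overlap, and its log2 fold change was -2.25 ± 0.71 (SE, limma adjusted p = 0.999). It was the 1 gene of this list under 0.05 without adjustment. HSD17B4 and HSD17B12, the most abundant genes of this list, had 23.8 and 20.4 FPKM in ZD8, against 54.9 to 118 and 69.2 to 131. HSD17B8 had 15.7 in ZD8 and 17.0 to 35.6 elsewhere.

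Of 6 tested genes for progesterone receptors and binding proteins 0 were called, with a median of -0.39 (-0.10 without ZD8). PGRMC1, a membrane component that binds haem, had 578 FPKM in ZD2, 985 in ZD3 and 453 in ZD12, against 581 in ZD5, 542 in ZD7 and 54.8 in ZD8. NENF had 35.9 in ZD8 and 24.9 to 55.4 elsewhere, and PAQR7, a membrane progestin receptor, 3.00 in ZD8 and 3.86 to 10.1 elsewhere.

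Among 20 tested genes that control steroidogenic transcription 0 were called, with a median of -0.17 (-0.16 without ZD8). LHCGR, the receptor for luteinizing hormone, had 27.8 FPKM in ZD2, 70.5 in ZD3 and 46.1 in ZD12, against 22.5 in ZD5, 24.2 in ZD7 and 10.4 in ZD8. All LLS values lay below all SLS values, and the log2 fold change was -1.28 ± 0.43 (SE, limma adjusted p = 0.999). It was the 1 gene of its list under 0.05 without adjustment. NR5A2, a nuclear receptor, had 168 in ZD2, 262 in ZD3 and 178 in ZD12, against 191 in ZD5, 181 in ZD7 and 1.69 in ZD8. CEBPB had 19.6 in ZD8 and 73.9 to 146 elsewhere, and PRKAR2B, a regulatory subunit of protein kinase A, 26.5 and 36.0 to 86.4.

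Genes of mitochondria in general were lower in ZD8 by less than the steps to progesterone. Of 12 tested, 0 were called, the median log2 fold change was -0.39 (-0.02 without ZD8), and ZD8 was the lowest ovary for 10, but for 0 of them at most 1 in 3 of the lowest other. ATP5B had 122 FPKM in ZD8 and 355 to 513 elsewhere, ATP5A1 126 and 322 to 396, and the chaperone HSPD1 52.6 and 79.8 to 175. The lists share a few genes, LHCGR among them with the luteal markers.

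The genes whose profile over the 6 ovaries was nearest to the mean of STAR, CYP11A1 and HSD3B1 were NR5A2, RLN2, MGAM, TIMP1 and KCNK3. The measure was the root mean squared distance between log2(FPKM + 1) values centred on the mean of each gene, which was 0.34 for NR5A2 (Pearson r = 0.997 over 6 ovaries) and 0.36 for RLN2. RLN2, the hormone relaxin, had 162 to 311 FPKM in 5 ovaries and 0.296 in ZD8. TIMP1, an inhibitor of metalloproteinases, had 5179 to 8556 and 126. MGAM had 77.4 to 116 and 0.329, and the potassium channel gene KCNK3 76.9 to 217 and 0.490.

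Nearest to FDX1 and FDXR were TNFRSF12A, KCNE1, HAGH, SCAP and GADD45B, with TNFRSF12A at a distance of 0.17 (r = 0.997). TNFRSF12A had 90.4 to 139 FPKM in 5 ovaries and 7.63 in ZD8. KCNE1 had 23.0 to 27.0 and 1.16, HAGH 38.3 to 55.1 and 4.78, SCAP 227 to 382 and 30.7, and GADD45B 30.4 to 36.7 and 3.08. In both sets the likeness rests on the single contrast of ZD8 with the other libraries.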

How the data were processed

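Total RNA without ribosomal RNA was sequenced from 6 ovaries (3 SLS, 3 LLS) with a kit that marks strand. The authors mapped the reads to Sscrofa11.1 with HISAT2 and deposited FPKM values per gene; the program that counted reads is not given in the sources used here. The authors also deposited small RNA values in RPM (BWA), used for depth only, with 3537619 to 9854086 reads per library.

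Whole reads were recovered from FPKM with the longest annotated transcript for 23477 of 23564 genes above 0 (99.6%, tolerance 0.001 reads). No exon of the 8 genes shares bases with another gene. Genes with at least 1 FPKM in at least 3 libraries were tested on log2(FPKM + 1), pseudocount 1, by limma 3.58.1 with a trended variance in R 4.3.3, and p-values were adjusted over all of them. Single values were compared by exact two-sided permutation tests of 3 ovaries against 3. Calls needed an adjusted p under 0.05 and a log2 fold change over 1 in size. The fit was tested on simulated data. Alternatives used edgeR 4.0.16 and DESeq2 1.42.0 on the recovered reads, other pseudocounts, filters and scalings, array weights and each ovary left out in turn. A GC trend (loess, span 0.3) was subtracted as a step chosen after seeing the data.

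The 8 genes and the lists of related and marker genes were chosen with earlier results of these data known. The text names the 8 genes, of each list the called genes, the 2 most abundant and the 2 with the smallest limma p, and the 5 genes nearest in profile to the 3 steps and to the 2 electron-transfer genes; 1 gene that this rule names is not reported here. Depth bounds the precision: the gene libraries held 32272803 to 60903268 reads.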

Additional observations from a re-analysis of the deposited data

How the results depend on the processing

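None of the 8 genes was called under any of the alternatives, and over all genes 0 were called except with array weights (13), by DESeq2 (20) and without ZD8 (21), so the counts with 1 ovary left out lay between 0 and 21. The log2 fold changes of CYP11A1, FDX1, FDXR and HSD3B1 were negative in each of 18 settings, from -3.21 to -0.10, -2.10 to -0.16, -1.75 to -0.41 and -3.92 to -0.12. Positive values came with array weights for STAR (0.54) and SCARB1 (0.32), and for STAR also from the read-based tools edgeR (0.073) and DESeq2 (0.067). With 1 ovary left out in turn STAR lay between -3.20 and 0.61, SCARB1 between -2.39 and 0.47, STARD3 between -0.39 and 0.027, and TSPO between -0.87 and 0.14. STAR and SCARB1 turned without ZD8, TSPO without ZD5, and STARD3 without ZD12 or ZD5. Among the ratios, the ranges were -0.062 to 1.13 for FDX1/CYP11A1, -0.31 to 1.58 for FDXR/CYP11A1, -0.54 to 0.25 for FDX1/FDXR, -0.068 to 0.71 for STAR/CYP11A1, -0.14 to 0.83 for SCARB1/STAR, -1.47 to 3.38 for TSPO/STAR and -0.87 to 3.27 for STARD3/STAR. These ratios turned without ZD8, FDX1/FDXR also without ZD3 (0.05), except STAR/CYP11A1, which turned only without ZD5. HSD3B1/CYP11A1 was negative in each of its 8 settings, from -0.80 to -0.021. The cause was not tested. No paired analysis was possible because the labels give the ovaries no numbers that are shared between the groups. With 3 ovaries per group an exact test cannot go below 0.1, and the depth of ZD8 is the lowest of the libraries.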

Other observations

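The order of STAR over the ovaries, from ZD8 and ZD2 through ZD12, ZD7 and ZD3 up to ZD5, was shared by 110 of the other 12259 tested genes (0.897%) and by 4 of the 71 genes tested in the pathway lists, STARD4, CYB5A, HSD17B4 and PRKACB. This was looked for after the values were seen. STARD4, a cytosolic carrier of cholesterol, had 0.587 FPKM in ZD8, 7.84 in ZD2 and 8.11 in ZD12, and 30.4 in ZD7, 33.6 in ZD3 and 47.2 in ZD5. As with STAR and CYB5A, ZD2 and ZD12 lay together and ZD3, ZD5 and ZD7 lay above them, across both litter size groups. The range of STARD4 over the 5 ovaries outside ZD8 was 2.45 on the log2 scale and 2.08 after subtraction of the GC trend, and that of CYB5A was 1.27 and 1.10. None of the 5 genes kept the full order after that subtraction. In STAR, STARD4 and CYB5A the values of ZD3, ZD5 and ZD7 still lay above those of ZD2 and ZD12, and in HSD17B4 and PRKACB the value of ZD3 lay below that of ZD2. STARD4 (34.05% GC), CYB5A (40.8%) and STAR (46.6%) have a lower GC content than TSPO, FDXR and STARD3.

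NR5A1 had 30.6 FPKM in ZD8 and 13.1 to 30.1 elsewhere, and its relative NR5A2 had 1.69 in ZD8.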
